A study of Arabidopsis thaliana with 39 samples.

Results

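PDC2 (AT5G54960) and DPE1 (AT5G64860) are genes of carbon metabolism in Arabidopsis thaliana, followed here in roots over 9 h with or without phosphate and iron in the medium. The members are the array rows that name only PDC2 or only DPE1 in the platform annotation. Each gene has 1 such row, so 2 genes are described out of 16561 with a row that names a single gene. The pair was picked from the deposited log2 levels themselves, with those of all 13 groups known, so every level and difference of PDC2 and DPE1 below is a description and carries no test.

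The samples are roots of wild-type plants of the Columbia-0 ecotype (Col-0), 10 days old and grown on medium with 1 mM phosphate. One group of 3 arrays holds roots at time 0. The other 12 groups, also of 3 arrays, hold roots sampled 3, 6 or 9 h later. Their medium was full, lacked phosphate, lacked iron, or lacked both nutrients. All 13 groups share the growth on full medium. The labels state a transfer to new medium for the deprived plants, and do not say whether the full-medium plants of 3, 6 and 9 h were moved as well. The labels number the replicates 1 to 3 and do not say that they came from separate cultures, so the spread may be partly technical. Against time 0, the passage of time and any handling of the plants therefore cannot be told apart.

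Pyruvate decarboxylase, which PDC2 encodes, removes carbon dioxide from pyruvate to give acetaldehyde, the first step of ethanolic fermentation. Alcohol dehydrogenase then makes ethanol from the acetaldehyde, or aldehyde dehydrogenases oxidise it to acetate. DPE1, the disproportionating enzyme of the plastid, acts at the other end of the route from stored carbohydrate. It moves glucan units between short maltooligosaccharides left by starch breakdown and releases glucose that can leave the plastid. In roots, starch is kept in plastids, most visibly in the gravity-sensing cells of the root cap.

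The table holds 28501 rows on 39 arrays, with array medians between 3.34 and 3.45. The values were read as log2 from their range, since the base is not stated, and every fold depends on that reading. The mean level of PDC2 over the arrays was above that of 75.3% of rows, and that of DPE1 above 69.4%. As a check of the tissue, 1 of 11 root markers had a row of its own, the root hair gene EXPA7, at a mean of 5.06. Of 8 shoot markers 2 had one, the Rubisco activase gene RCA at a mean of 6.98 and the light-harvesting gene LHCB4.1 at 5.18, so these arrays labelled as roots held signal of both. The 13 arrays numbered replicate 3 stood apart. All of them lay beyond the other 26 on the first principal component of deviations from the group means (29.6% of the variance), and RCA and LHCB4.1 were highest on replicate 3 in 13 of 13 groups. RCA lay between 6.88 and 8.50 on those arrays and between 5.68 and 7.28 on the others. Results are therefore also given for replicates 1 and 2 alone, a choice made after the data had been seen.

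PDC2 was lowest at time 0, where the 3 arrays read 3.81, 3.22 and 3.57 (mean 3.53 ± 0.30, SD, n = 3). In full medium it read 4.58, 4.49 and 4.67 at 3 h, 6.15, 5.37 and 5.12 at 6 h, and 5.56, 5.39 and 5.38 at 9 h. Each full-medium array was above each time 0 array, as 5.63%, 5.82% and 7.79% of all rows showed at 3, 6 and 9 h. The groups at 6 and 9 h overlapped while 3 h lay below both. Among all rows, 4.89% showed such an upward gap from 3 to 6 h in full medium, and the share from 3 to 9 h was not counted. Without phosphate PDC2 read 4.76, 4.61 and 4.98 at 3 h, 5.70, 5.67 and 5.77 at 6 h, and 5.88, 4.94 and 5.37 at 9 h. Without iron it read 5.49, 5.34 and 4.70 at 3 h, 5.71, 5.15 and 5.87 at 6 h, and 5.99, 5.63 and 5.24 at 9 h. Here the 3 h arrays overlapped those of 6 and 9 h, and only replicate 3 at 3 h stayed near the full-medium level of that time. Without both nutrients PDC2 read 5.48, 5.38 and 4.75 at 3 h, 5.01, 5.30 and 5.65 at 6 h, and 6.30, 5.76 and 5.82 at 9 h. The 9 h arrays were the highest of that medium, with no overlap with 3 or 6 h. Between 6 and 9 h, 5.89% of all rows showed such an upward gap there, and the share from 3 to 9 h was not counted.

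**Figure D1:**
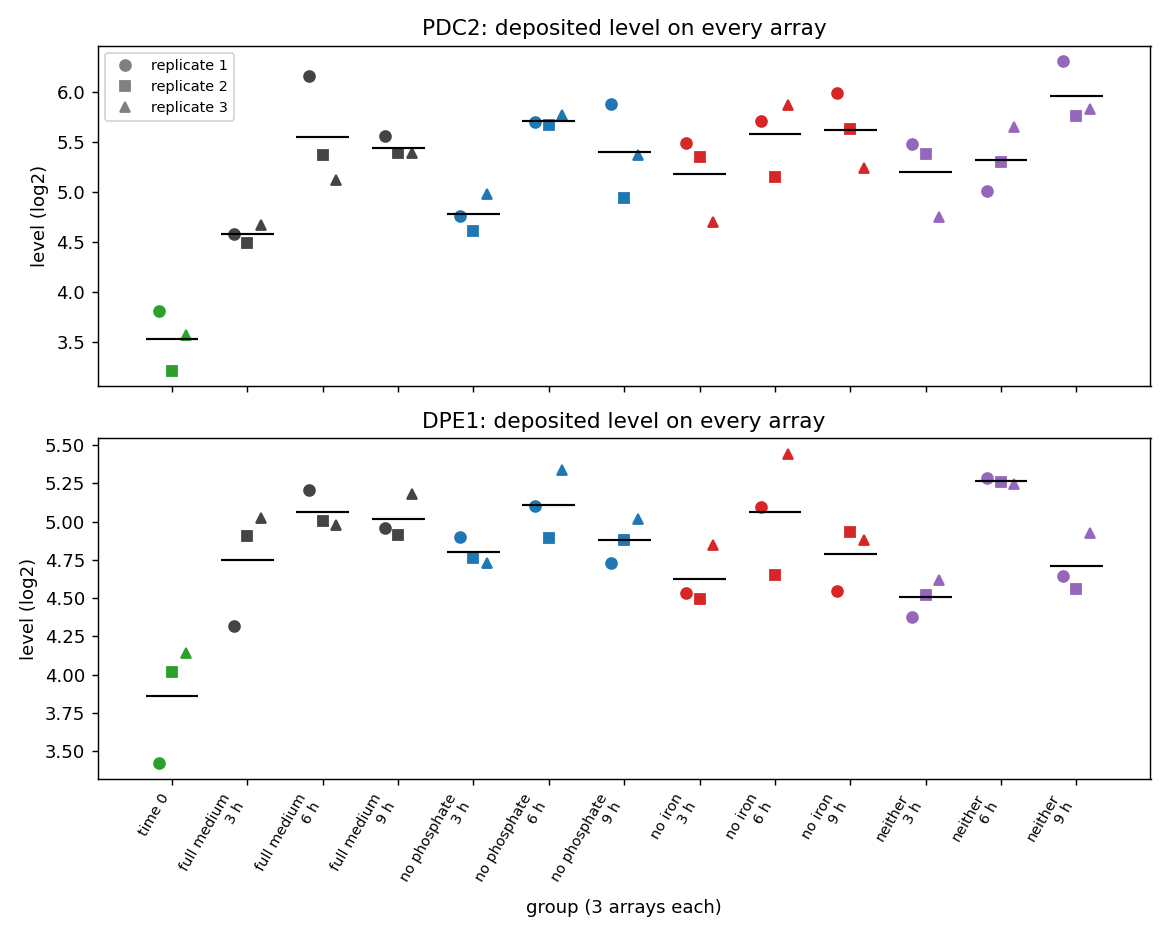
Deposited log2 level of PDC2 (top) and DPE1 (bottom) on each of the 39 arrays, by group on the x axis. Symbols give the replicate number and bars the mean of 3 arrays; the 3 arrays at time 0 lie below all 36 later arrays for both genes.

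Over the 4 media together, PDC2 stood 1.40 above time 0 at 3 h (SE 0.21, 2.64-fold), 2.0 at 6 h (SE 0.21, 4.01-fold) and 2.07 at 9 h (SE 0.21, 4.20-fold). At every one of these times 12 of 12 arrays exceeded the 3 arrays at time 0. A full separation of this kind in the upward direction was found in 1.08% of all rows at 3 h, 1.31% at 6 h and 1.74% at 9 h. Ordered from the most raised row down, the difference ranked 62nd of 28501 rows at 3 h, 25th at 6 h and 20th at 9 h. In either direction, 0.288%, 0.144% and 0.137% of rows differed at least as much. With replicates 1 and 2 alone the differences were 1.5, 1.99 and 2.16. In full medium alone they were 1.05, 2.01 and 1.91 (SE 0.26 each), with no nutrient withheld. The lowest and highest of the 12 groups were full medium at 3 h, 2.06-fold above time 0, and both nutrients absent at 9 h, 5.37-fold above it. All 12 of these differences share the same 3 time 0 arrays.

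Ordered by level, the PDC2 groups ran from time 0 through full medium, no phosphate, no iron and both absent at 3 h (means 4.58, 4.78, 5.18 and 5.20) to the 6 and 9 h groups. Those lay between 5.32 for both absent at 6 h and 5.96 for both absent at 9 h. Only the step from time 0 to full medium at 3 h, a gap of 1.05, separated neighbours without overlap. Every other pair of neighbours overlapped, with gaps of at most 0.39 against a within-group SD of 0.34 pooled over the groups.

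DPE1 was also lowest at time 0, where it read 3.42, 4.02 and 4.14 (mean 3.86 ± 0.38, SD, n = 3). In full medium it read 4.32, 4.91 and 5.02 at 3 h, 5.21, 5.0 and 4.98 at 6 h, and 4.96, 4.91 and 5.18 at 9 h. Replicate 1 was the low array both at time 0 and in full medium at 3 h. Each later full-medium array was above every time 0 array, as 5.63%, 5.82% and 7.79% of all rows showed at 3, 6 and 9 h. Without phosphate DPE1 read 4.90, 4.76 and 4.73 at 3 h, 5.10, 4.89 and 5.34 at 6 h, and 4.73, 4.88 and 5.02 at 9 h. Without iron it read 4.53, 4.49 and 4.85 at 3 h, 5.10, 4.65 and 5.44 at 6 h, and 4.55, 4.93 and 4.88 at 9 h. The times overlapped in both of these media. Without both nutrients DPE1 read 4.37, 4.52 and 4.62 at 3 h, 5.29, 5.26 and 5.25 at 6 h, and 4.64, 4.56 and 4.93 at 9 h. In this medium the 6 h arrays were tight and lay above all arrays of 3 and 9 h. Among all rows, 7.17% showed such an upward gap from 3 to 6 h there and 4.79% such a downward gap from 6 to 9 h.

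Over the 4 media together, DPE1 stood 0.81 above time 0 at 3 h (SE 0.15, 1.75-fold), 1.27 at 6 h (SE 0.15, 2.40-fold) and 0.99 at 9 h (SE 0.15, 1.98-fold). As for PDC2, 12 of 12 arrays exceeded those of time 0 at each time, beside the same shares of all rows. Ordered from the most raised row down, the difference ranked 342nd of all rows at 3 h, 122nd at 6 h and 218th at 9 h. In either direction, 1.81%, 0.67% and 1.32% of rows differed at least as much. With replicates 1 and 2 alone the DPE1 difference was 0.88, 1.34 and 1.05. Leaving out replicate 1 of time 0, the lowest array, gave 0.59, 1.05 and 0.77. In full medium alone DPE1 stood 0.89, 1.2 and 1.16 above time 0 (SE 0.19 each).

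The order of the DPE1 groups began with time 0 and both absent at 3 h (mean 4.51), a gap of 0.65 with no overlap, as 7.67% of all rows showed. It ended with full medium, no iron, no phosphate and both absent at 6 h (5.06, 5.06, 5.11 and 5.26), so that the 4 groups of 6 h held the 4 highest means. From there down to both absent at 3 h every pair of neighbours overlapped, with gaps of at most 0.15 against a pooled within-group SD of 0.23.

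**Figure D2:**
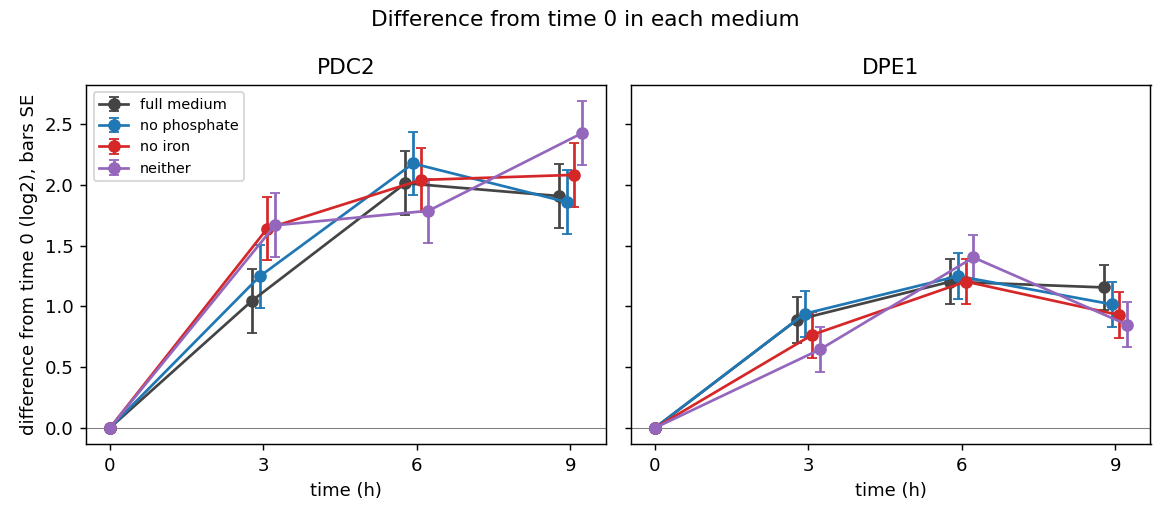
Difference of PDC2 (left) and DPE1 (right) from time 0 on the log2 scale at 3, 6 and 9 h, one line per medium. Points are fitted differences of 3 arrays against the 3 arrays at time 0, bars are their SE, and time 0 is set to 0; PDC2 runs from 1.05 to 2.43 and DPE1 from 0.65 to 1.40.

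The steps between times were also set side by side for both genes. The mean of the 4 media was higher at 6 h than at 3 h for both, by 0.60 for PDC2 (SE 0.13) and 0.46 for DPE1 (SE 0.09). At 9 h, compared with 6 h, PDC2 differed by 0.06 (SE 0.13) and DPE1 by -0.28 (SE 0.09). The DPE1 difference between 6 and 9 h was -0.05 in full medium, -0.23 without phosphate, -0.28 without iron and -0.55 without both (SE 0.19 each). For PDC2 it was -0.11, -0.32, 0.04 and 0.64 (SE 0.26 each) in the same order. The differences of the 2 genes thus had opposite signs without iron and without both nutrients, with PDC2 near 0 without iron. Within the groups, PDC2 was above its group mean on 10 of 13 arrays of replicate 1, against 3 of 13 for replicate 2 and 6 of 13 for replicate 3. DPE1 was above its group mean on 10 of 13 arrays of replicate 3, where the shoot markers were high, against 4 of 13 and 5 of 13 for replicates 1 and 2. The part of the shoot markers in this was not tested.

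The shoot markers overlapped between time 0 and the later arrays. The log2 of the summed linear level of the 2 measured markers ranged from 6.71 to 8.77 at time 0 and from 6.18 to 8.73 over the 12 later groups. RCA differed from time 0 by 0.02, -0.37 and -0.55 at 3, 6 and 9 h and LHCB4.1 by 0.36, 0.38 and 0.11, with limma adjusted p from 0.748 to 0.995. The other 6 shoot markers have no row of their own in the annotation used. The 1 measured root marker, EXPA7, differed from time 0 by -0.42, -0.55 and -0.42 at 3, 6 and 9 h, without a call. In bulk root samples, fewer cells of a type and less RNA per cell cannot be told apart.

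Against full medium at the same time, the differences of PDC2 and DPE1 were smaller than those against time 0. Averaged over the times, PDC2 stood 0.10 above full medium without phosphate, 0.27 above it without iron and 0.30 above it without both (SE 0.15 each). With replicates 1 and 2 alone, the value without phosphate was 0.00 and the others were 0.29 and 0.28. DPE1 stood at -0.01, -0.12 and -0.12 (SE 0.11 each), and at -0.01, -0.17 and -0.11 with replicates 1 and 2 alone. The 3 deprived media share the full-medium arrays. In each of these comparisons the ranges of the 9 deprived and the 9 full-medium arrays overlapped.

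The widest PDC2 differences between media were at 3 h. There PDC2 stood 0.60 above full medium without iron and 0.62 above it without both (SE 0.26 each), against 0.20 without phosphate alone. All 3 arrays of the no-iron group and all 3 of the double-deprived group exceeded the 3 full-medium arrays, as 3.5% and 4.16% of all rows did. The 6 arrays without iron in the medium lay between 4.70 and 5.49, and the 6 with iron between 4.49 and 4.98, a difference of 0.51 (SE 0.19). The replicate 3 arrays of the iron-free groups, at 4.70 and 4.75, lay within the range of the arrays with iron. With replicates 1 and 2 alone the differences from full medium were 0.88 without iron and 0.89 without both. RCA differed from full medium by 0.41 and 0.66 in the same comparisons and LHCB4.1 by 0.13 and 0.44 (limma adjusted p of at least 0.999), and the part of the shoot markers in the PDC2 difference was not tested. At 6 h the iron-free arrays stood -0.18 from those with iron (SE 0.19), and at 9 h 0.37 (SE 0.19).

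At 9 h the double-deprived arrays of PDC2 exceeded all full-medium arrays, by 0.52 on average (SE 0.26, and 0.56 with replicates 1 and 2 alone), a separation found in 5.66% of rows. At 6 h the same medium stood at -0.23 from full medium, with overlap, and at -0.61 with replicates 1 and 2 alone. PDC2 without phosphate lay within 0.20 of full medium at each time.

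**Figure D3:**
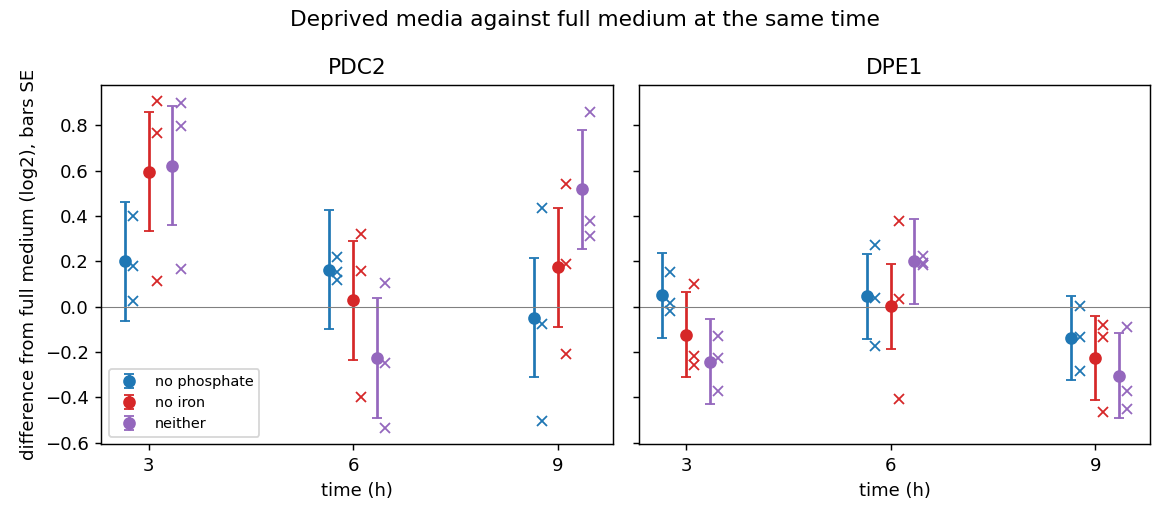
Difference of each deprived medium from full medium at the same time on the log2 scale, for PDC2 (left) and DPE1 (right). Filled circles are fitted differences with SE bars and crosses are the 3 deprived arrays minus the full-medium mean; the circles furthest from 0 are PDC2 without iron (0.60) and without both (0.62) at 3 h.

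For DPE1 the double-deprived medium gave the widest differences from full medium. They were -0.24 at 3 h, 0.20 at 6 h and -0.31 at 9 h (SE 0.19 each), and -0.16, 0.17 and -0.33 with replicates 1 and 2 alone. At 6 h its 3 arrays, from 5.25 to 5.29, exceeded the full-medium arrays, which reached 5.21, as 2.72% of rows did. At 3 and 9 h the groups overlapped. Without phosphate DPE1 lay between -0.14 and 0.05 of full medium, and without iron between -0.23 and 0.00.

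The other genes of the pathways were taken from 7 lists of loci, and 35 of their 136 genes have a row of their own. They were tested in the fit over all rows (limma, Benjamini-Hochberg adjustment, called at an adjusted p under 0.05). Against time 0, with the 4 media together, 0 of the 35 were called at 3 h, with 6 under an unadjusted p of 0.05, beside 3632 of the 28501 rows. At 6 h 1 was higher and 1 lower, and at 9 h 2 were higher and 3 lower. Over all rows 2.07% were called at 3 h, 1.11% higher and 0.961% lower. At 6 h 2.56% were called, 1.13% higher and 1.44% lower, and at 9 h 3.03%, 1.43% higher and 1.6% lower. The median difference of the 35 was 0.08, -0.05 and 0.07 at 3, 6 and 9 h, against -0.02, -0.01 and -0.01 over all rows.

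Of the starch degradation list 2 of 24 genes were measured. PWD, the phosphoglucan water dikinase that phosphorylates starch granules and so opens them to breakdown, read 4.33, 4.44 and 4.39 at time 0. Over the media its lowest, median and highest arrays were 4.55, 4.91 and 5.23 at 3 h, 5.07, 5.43 and 6.05 at 6 h, and 4.95, 5.30 and 5.93 at 9 h. All 12 arrays of each time were above those of time 0, as 1.08%, 1.31% and 1.74% of all rows showed at 3, 6 and 9 h. PWD rose by 1.06 at 6 h (SE 0.19, 2.09-fold, limma adjusted p = 0.000571) and by 0.99 at 9 h (SE 0.19, 1.98-fold, adjusted p = 0.00136). The difference at 3 h, 0.53, did not pass (adjusted p = 0.167). PWD kept both calls in each alternative run, with adjusted p up to 0.0228. Its replicate 3 arrays were the highest of their group in 11 of 13 groups, and with replicates 1 and 2 alone PWD stood 0.88 and 0.83 above time 0. The second gene, the alpha-amylase gene AMY1, stood at -0.06, -0.05 and -0.15 and was dim, with a mean of 1.59.

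Of the starch synthesis list 4 of 17 genes were measured and 1 was called. The branching enzyme gene SBE2.2, which adds side branches to growing glucans, fell by 0.74 at 9 h (SE 0.18, limma adjusted p = 0.0157), when all 12 arrays lay below those of time 0, as 1.91% of all rows did. Leaving out replicate 1 or replicate 3 of time 0 ended the SBE2.2 call (limma adjusted p = 0.0795 and 0.149). The ADP-glucose pyrophosphorylase genes APL3 and APL4 stood at 0.20 and -0.12 at 9 h, without a call.

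Of the fermentation list 6 of 12 genes were measured. The paralogs of PDC2 with a row of their own, PDC3 and AT5G01320, were dim, at means of 2.0 and 1.44 against a first quartile of 1.71 over all rows. They stood at -0.21 and -0.23 at 3 h, -0.38 and -0.45 at 6 h, and -0.35 and -0.28 at 9 h, and neither was called (limma adjusted p from 0.266 to 0.756). PDC3 lay below time 0 on 12 of 12 arrays at 6 h, as 1.63% of all rows did. At 3 h 7 of 12 PDC3 arrays lay below all time 0 arrays and 1 lay above them, and at 9 h 11 of 12 lay below. ALDH2C4, an aldehyde dehydrogenase gene known for oxidising phenolic aldehydes of the phenylpropanoid route, rose by 0.49 at 9 h (SE 0.14, adjusted p = 0.0438), and the call was lost in 12 of 21 alternatives, with adjusted p up to 0.342. The lactate dehydrogenase gene AT4G17260, the acetyl-CoA synthetase gene ACS and the alanine aminotransferase gene AlaAT1 were not called at any time. PDC1 and the alcohol dehydrogenase gene ADH1 have no row of their own in the annotation used.

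Of a list of 18 genes linked to low oxygen (hypoxia) 2 were measured. AT3G27220 fell by 0.71 at 6 h (SE 0.18, limma adjusted p = 0.0286) and by 0.65 at 9 h (adjusted p = 0.0473). It lay below time 0 on 12 of 12 arrays at both times, as 1.63% and 1.91% of all rows did. AT3G27220 lost its call at 6 h without replicate 1, 2 or 3 of time 0 (limma adjusted p = 0.102, 0.207 and 0.0689). The 6 h call was also lost with replicates 1 and 2 alone (limma adjusted p = 0.0751). At 9 h the AT3G27220 call was lost in 14 of 21 alternatives, with limma adjusted p up to 0.239. HRA1 (AT3G10040), a repressor in the low-oxygen response, was dim at a mean of 2.01 and not called.

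Of the glycolysis list 16 of 38 genes were measured and 0 were called at any time in the fit without a block, with differences from -0.76 to 0.67. The lowest was ALDH11A3, which encodes the non-phosphorylating glyceraldehyde-phosphate dehydrogenase, at 9 h (-0.76, SE 0.69, limma adjusted p = 0.708), with a within-group SD of 1.14. With the replicate number as a block ALDH11A3 was called lower at 9 h (limma adjusted p = 0.0182). The widest at 3 h was the pyruvate kinase gene AT3G55650 (0.67, limma adjusted p = 0.0948). The cytosolic glyceraldehyde-phosphate dehydrogenase gene GAPC2 and the triose-phosphate isomerase gene TPI were bright, at means of 8.45 and 8.25. Of the pyruvate entry list 4 of 16 were measured, all subunits of the mitochondrial pyruvate dehydrogenase complex, among them MAB1 and LTA3. None was called at any time, and all stood between -0.09 and 0.21. Of the sucrose cleavage list 1 of 13 was measured. AT1G62660, a vacuolar invertase gene, fell by 0.58 at 9 h (SE 0.11, limma adjusted p = 0.0021) and lost its call without replicate 1 of time 0 (adjusted p = 0.0959).

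**Figure D4:**
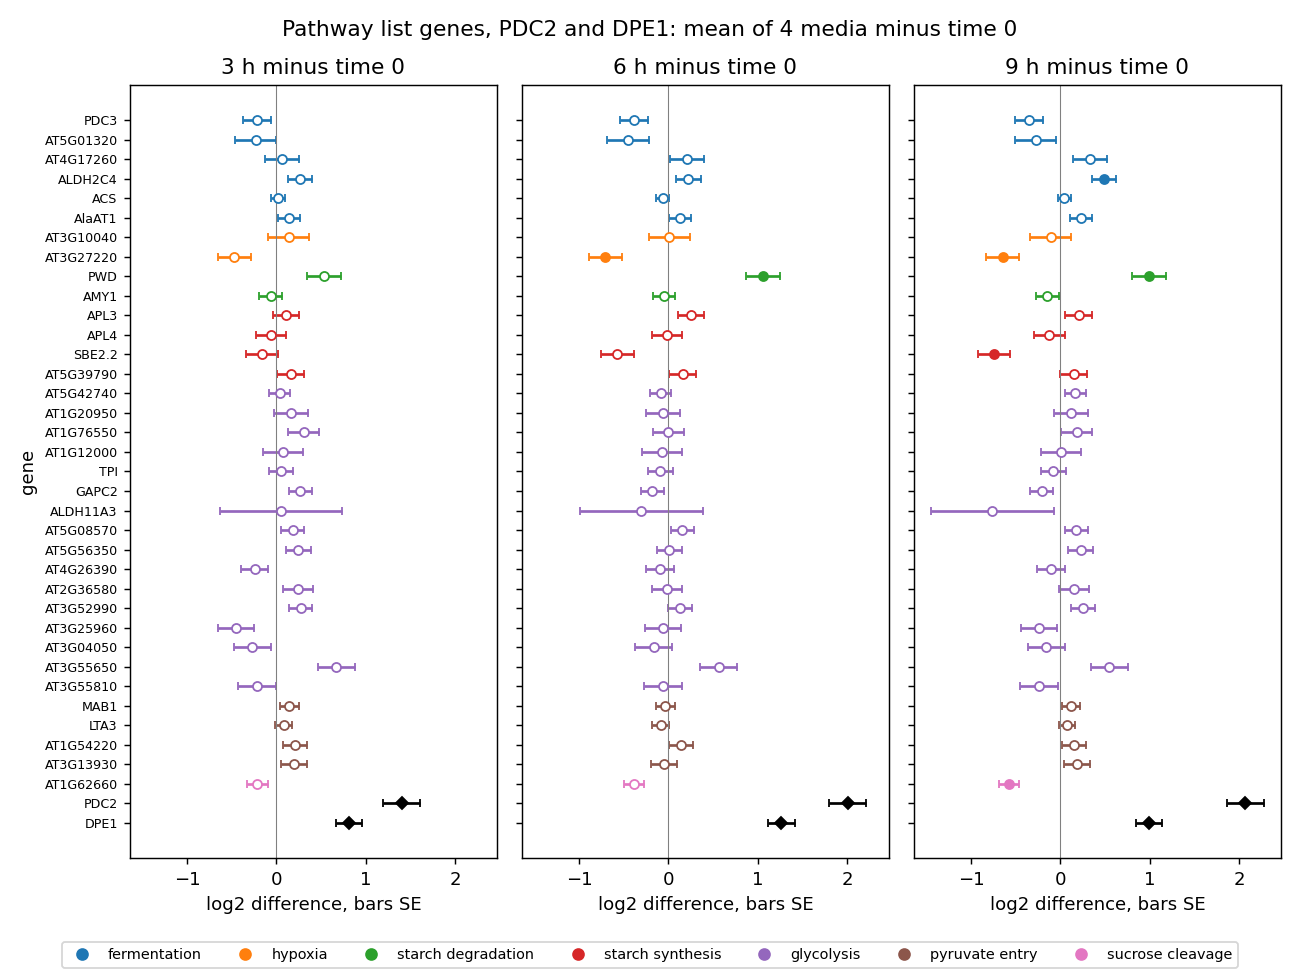
Log2 difference from time 0 of the 35 measured list genes (circles, coloured by list) and of PDC2 and DPE1 (diamonds) at 3, 6 and 9 h, each the mean of 4 media minus time 0 with SE bars. Filled circles passed the limma test over all rows and open ones did not; the members carry no test, and PWD is the list gene furthest to the right at 6 and 9 h.

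In the 9 comparisons of a deprived with full medium at 1 time and the 3 means over the times, limma called 0 of the 35 list genes. From 0 to 2 of the 35 were under an unadjusted p of 0.05 in each, beside 565 to 1315 of the 28501 rows. Over all rows, 7 of these 12 comparisons gave no call. The share called was 0.0246% (all higher) without both nutrients at 3 h and 0.00351% (all higher) at 9 h, and 0.00702% (all higher) without phosphate at 9 h. For the means over the times it was 0.0105% without iron, 0.00351% higher and 0.00702% lower, and 0.0105% without both, all higher. PWD lay between -0.18 and 0.09 of full medium in the 9 comparisons.

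The genes of most similar pattern were those with the highest Pearson correlation between their 13 group means and those of the member, among 7345 genes brighter than the median row. For PDC2 these were AT3G14172 (r = 0.958), AT3G07640 (0.953), AT1G27020 (0.943), AT2G16365 (0.941) and AT5G51570 (0.926). AT1G27020 was the one that differed from time 0 about as much as PDC2, at 1.48, 2.2 and 2.21 above time 0 at 3, 6 and 9 h. The other 4 stood between 0.34 and 1.09 above it. For DPE1 they were AT5G47020 (r = 0.954), AT5G02860 (0.945), WNK9 (0.932), a WNK-type protein kinase gene, AT1G22570 (0.912) and CCL (0.912). CCL stood 1.65, 2.56 and 1.79 above time 0, the widest of the 5. All 10 genes had their lowest group mean at time 0, where both members were lowest too. Choosing genes by correlation with the members makes this likely, so it is no separate result. The correlation between PDC2 and DPE1 themselves was 0.749, which placed DPE1 141st among the 7345 for PDC2 and PDC2 108th for DPE1. The lists were not stable. Of the 5, 1 to 3 were shared for PDC2 and 2 to 3 for DPE1 when Spearman correlation was used or replicate 1, 2 or 3 was left out of every group.

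**Figure D5:**
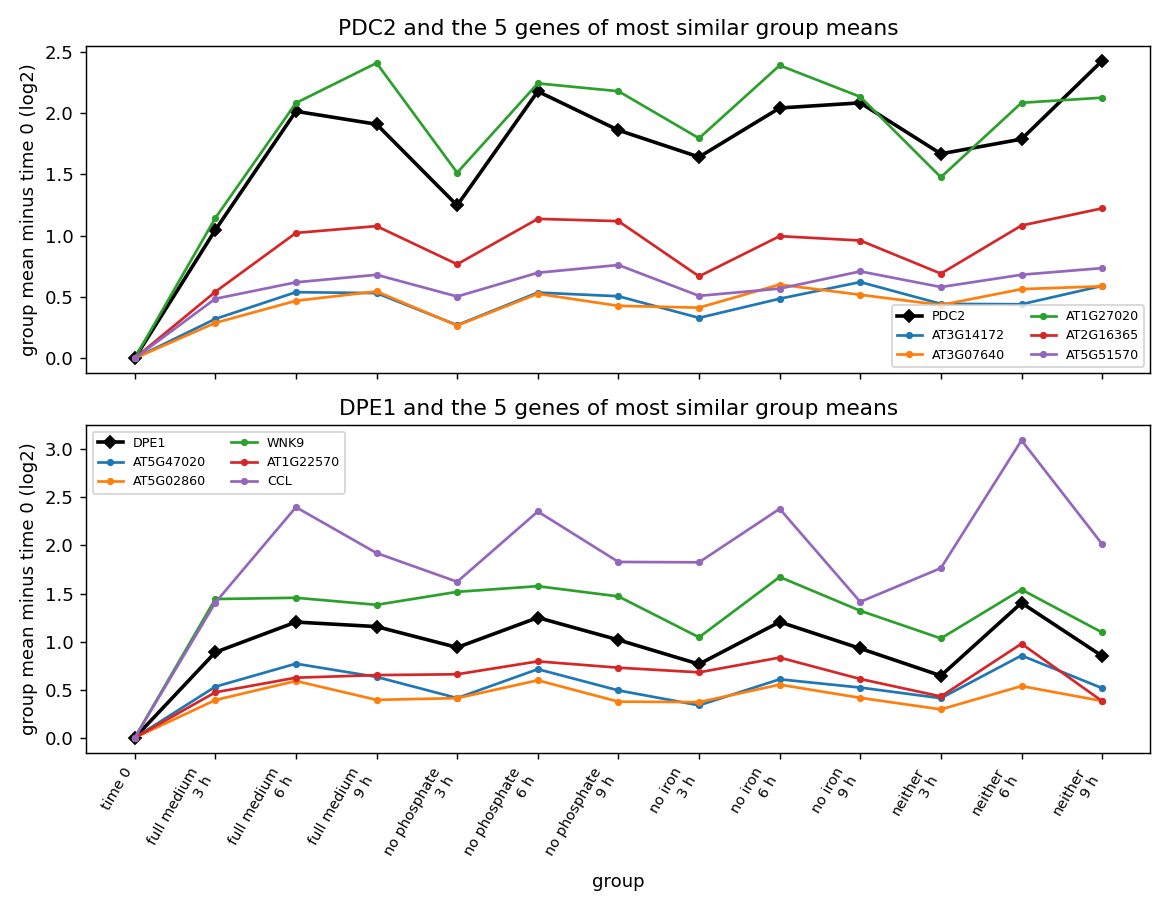
Group means minus the time 0 mean on the log2 scale for PDC2 (top, black) and DPE1 (bottom, black) and the 5 genes of most similar group means, over the 13 groups on the x axis. All lines start at 0 and stay above it; AT1G27020 follows PDC2 most closely in size, and CCL lies furthest from 0 in the lower panel.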

How the data were processed

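Biotin-labelled cDNA from 100 ng of total root RNA was hybridised to whole-transcript arrays, per the labels' protocols. The authors deposited 1 value per row and array, read here as log2, and the submitters' processing notes name GCRMA, Expression Console and Transcriptome Analysis Console (their versions are not given in the sources). GCRMA normalizes across arrays, so levels are relative. Precision is limited by the number of arrays. The platform annotation named a single gene on 16746 rows, more than 1 on 758 and no gene on 10997. Of the 16746, 16601 matched RefSeq (TAIR10.1, names only).

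Group means of all 39 arrays were fitted together with lmFit and eBayes (limma 3.58.1, R 4.3.3), and two-sided p-values were adjusted over 28501 rows (Benjamini-Hochberg). The replicates' p-values measure only the spread between these samples. The fit was tested on simulated data with independent noise on each array and no effect of replicate number, unlike the deposited arrays. The members, lists and tests were chosen with earlier results of these data known. Named genes are PDC2, DPE1, the 5 most similar genes of each, up to 4 called members per list, and the other PDC genes and DPE2 where a row exists; further list genes are named as examples, chosen after their values were seen. Alternatives were quantile normalization, array weights, a filter on dim rows, a replicate block, smaller fits and leaving out arrays.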

Additional observations from a re-analysis of the deposited data

Results flagged for a closer look

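Groups of 3 arrays are too small to test single arrays as outliers. With both nutrients absent, DPE1 lay above the full-medium mean on all 3 arrays at 6 h and below it on all 3 arrays at 3 h and at 9 h. Against the full-medium mean of the same time, the arrays lay from -0.37 to -0.13 at 3 h, from 0.18 to 0.22 at 6 h and from -0.45 to -0.09 at 9 h. The difference from full medium changed by 0.44 from 3 to 6 h and by -0.51 from 6 to 9 h. At 3 and 9 h the double-deprived arrays overlapped those of full medium. These changes were the only ones flagged when all pairs of times and of deprived media were compared for both genes. The share of all rows with such a change was not counted, and the changes were not tested.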

How the results depend on the processing

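PDC2 and DPE1 stayed above time 0 in each of 63 values per gene for the mean of the media, which ran from 1.24 to 2.21 for PDC2 and from 0.59 to 1.41 for DPE1 over 3 to 9 h. The same held in 144 values per gene for single groups. Every later array lay above all time 0 arrays for both genes, so leaving out arrays could not reverse these signs. The counts are therefore no separate support for the rise. Against full medium, the mean over the times kept its sign in 72 of 72 values for PDC2 and changed it in 7 of 72 for DPE1. At single times 13 of 108 values of PDC2 and 12 of 108 of DPE1 changed sign. Deviations from the group means correlated at 0.259 on average between arrays of the same replicate number and at -0.13 between others, and 37 of 39 arrays were closest to their own number. Deviations within a group sum to 0, so the negative value follows largely from the positive one. Every pair exceeded 0.1 in only 12 of 21 comparisons, so the numbers were not taken as pairs. With the replicate block the differences were the same and the SE against time 0 was 0.18 for PDC2 and 0.13 for DPE1; it changed the counts of list genes called to 1 higher (PWD) at 3 h, 3 lower at 6 h and 4 lower at 9 h (ALDH11A3 added). At 3 h 1 list gene was called higher under quantile normalization and with replicates 1 and 2 alone (AT3G55650 in both). At 6 h 2 were called lower with array weights and with the filter on dim rows, and 0 with replicates 1 and 2 alone. At 9 h 1 was called higher under quantile normalization, in the smaller fit of the compared groups, and with replicates 1 and 2 alone. With 1 array left out, list genes called higher numbered 0 to 1, 1 to 2 and 1 to 2 at 3, 6 and 9 h and those called lower 0, 0 to 2 and 0 to 3. Over all rows, 317, 322 and 408 were called higher and 274, 409 and 455 lower at 3, 6 and 9 h; without replicate 1 of time 0 these counts were 131, 177 and 204 and 67, 145 and 175. Leaving out replicate 3 of time 0 gave 144, 205 and 202 and 157, 254 and 239, and the replicate block gave 468, 502 and 588 and 434, 582 and 621. With replicates 1 and 2 alone, added after seeing the data, they were 136, 181 and 182 and 92, 193 and 176, and in the smaller fit 202 higher and 136 lower at 3 h and 261 lower at 6 h. No value of PDC2 or DPE1 against time 0 or averaged over the times moved by more than the SD within groups. At single times PDC2 did without iron and without both at 6 h (-0.33 and -0.61), and DPE1 without iron at 6 h (-0.23), all with replicates 1 and 2 alone. The genes most like each member were ranked again as given above. Another row for either member could not be tried, since each has 1, and promoter motifs were not searched. The causes were not tested.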
